A study of Mus musculus with 48 samples.

Results

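The effect of food restriction without gastric surgery on enteroendocrine cells (EECs), the hormone-secreting cells of the gut lining, was examined in the large intestine, where 5 weight-matched sham mice (S_wm) were compared with 5 sham mice fed ad libitum (S_al). The libraries were chosen by their labels for tissue (colon and rectum together, called colon here) and condition, and these 10 were part of 48 libraries of NeuroD1-positive cells from 17 mice, which also covered the duodenum, the ileum and mice with vertical sleeve gastrectomy (VSG). All animals were lean males of the Neurod1-cre-eYFP strain on a C57BL6 background, about 20 weeks old at surgery, singly housed, and kept on liquid diet around the operation before a return to chow. Both sham groups had a suture placed along the stomach without tissue removal, received analgesic and antibiotic, and differed in feeding: S_al mice ate freely, whereas S_wm mice received limited food in 2 portions a day so that their weight followed that of the VSG group. Tissue was taken 6 weeks after surgery, after an overnight fast in every group, and glucose (3 g/kg) had been given into the stomach about 15 min earlier. The time of day of collection was not given for any group in the sources used here. Food amount, its timing and the matching of weight came together in S_wm, so their parts cannot be told apart. Cells were sorted for EYFP, which is expressed wherever the Neurod1 promoter drives or has driven Cre, after removal of CD45-positive cells, and each library came from 1 mouse.

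EECs are scattered among the absorptive and goblet cells of the colonic epithelium. Colonic EECs include L-cells, which make GLP-1, PYY and INSL5, and enterochromaffin cells, which make serotonin. Like most cells they hold a circadian clock, in which ARNTL (BMAL1) pairs with CLOCK or NPAS2 to activate genes with E-box sequences, among them the Per and Cry repressors, the Rev-erb repressors Nr1d1 and Nr1d2, and the PAR-bZIP activator Dbp. NR1D1 and NR1D2 in turn repress Arntl and Nfil3, and NFIL3 and the PAR-bZIP factors DBP, TEF and HLF act in opposition on D-box sequences. Feeding times are known to set the phase of this clock in peripheral tissues of mice.

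Total counts in the 10 libraries were between 4648651 and 8535717 (median 6479057.5), and 17781 to 22231 genes had at least 1 count. The tissue label was met by the markers. The 5 colonic and rectal identity genes that were tested were summed in CPM (counts relative to library size, scaled by edgeR's TMM factors). Their sum was 269 to 534 CPM in the 16 colon libraries, against 42.6 to 98.1 CPM in the ileum and 2.55 to 11.1 CPM in the duodenum. For mouse 12 the description code of the colon library names the other intestinal segment, and its values for these genes (329 CPM in the library labelled colon, 72.4 CPM in that labelled ileum) stood on the side of the tissue label. Sorted-cell identity genes (12 EEC genes, among them Neurod1 and Chga) summed to 38600 to 99900 CPM in S_al and 29600 to 72100 CPM in S_wm, and 10 of the 12 had a fitted value below 0 in S_wm, none past the threshold. The share of counts from mitochondrial genes was 17.1 to 26.9%, and was highest in S_wm mouse 27. The feeding group accounted for 8.76% of the summed squares of the 500 most variable genes. An exact permutation test over 252 divisions of the 10 libraries, one-sided, gave p = 0.579. The nearest library by Euclidean distance was of the same group for 5 of 10.

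Of 15126 genes tested across the transcriptome, 2 differed between S_wm and S_al in the colon (0.0132% of those tested, edgeR's quasi-likelihood test with Benjamini-Hochberg adjustment at 0.05). Arntl, the core activator of the clock, was lower in S_wm, and Dbp, a clock-controlled activator, was higher. A further 2 clock genes, Nfil3 and Cry1, followed them in the order of p values without passing the threshold. Without adjustment, 553 genes (3.66%) had a p under 0.05, 260 of them higher and 293 lower in S_wm. The 3.66% is below the share of 0.05 that such p values have where no gene differs. The median log2 fold change over all genes was 0.0005. The libraries of the groups did not overlap in 69 genes (0.456%). In sorted bulk cells, fewer cells with a transcript and less of it per cell cannot be told apart. Each mouse was sampled at a single time, so a shift in clock phase and a change in level cannot be told apart either. The time of day was not given by group, and a difference in it cannot be told apart from feeding.

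Promoters of 4 clock genes are shown, those of Arntl and Dbp because these were the genes called, and those of Cry1 and Nr1d1 as examples of windows that hold an E-box or an E-prime box, the motifs through which CLOCK and BMAL1 act. RefSeq (GRCm38.p6, the build of the deposited counts) had a start site for all 6 genes looked up (Arntl, Cry1, Dbp, Tef, Nr1d1 and Nfil3), and the 250 bases before each start were searched on both strands for the E-box CACGTG, the E-prime box CACGTT, the ROR and REV-ERB half-site AGGTCA and the D-box TTATGTAA or TTACGTAA. Among 32817 promoter windows of the same length, 6.02% held the E-box, 3.85% the E-prime box, 14% the half-site and 0.929% a D-box. The sequences run 5′ to 3′ on the gene's strand, leave out bases inside the GENCODE gene model, and have motif matches in capitals.
Arntl (chr7:113207215-113207464, plus strand): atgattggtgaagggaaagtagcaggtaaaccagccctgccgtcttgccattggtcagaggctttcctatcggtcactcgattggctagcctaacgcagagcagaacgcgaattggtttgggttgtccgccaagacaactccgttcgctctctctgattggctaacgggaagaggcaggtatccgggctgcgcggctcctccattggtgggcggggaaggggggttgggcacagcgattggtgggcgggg
Dbp (chr7:45704997-45705087, plus strand): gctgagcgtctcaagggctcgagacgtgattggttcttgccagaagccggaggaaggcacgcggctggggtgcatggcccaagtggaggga
Cry1 (chr10:85185065-85185304, minus strand): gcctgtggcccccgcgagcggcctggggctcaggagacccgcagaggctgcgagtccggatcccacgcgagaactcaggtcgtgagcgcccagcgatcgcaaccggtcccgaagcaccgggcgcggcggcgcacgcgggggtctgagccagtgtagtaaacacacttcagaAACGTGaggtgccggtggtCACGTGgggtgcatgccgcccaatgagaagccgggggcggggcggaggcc
Nr1d1 (chr11:98775378-98775627, minus strand): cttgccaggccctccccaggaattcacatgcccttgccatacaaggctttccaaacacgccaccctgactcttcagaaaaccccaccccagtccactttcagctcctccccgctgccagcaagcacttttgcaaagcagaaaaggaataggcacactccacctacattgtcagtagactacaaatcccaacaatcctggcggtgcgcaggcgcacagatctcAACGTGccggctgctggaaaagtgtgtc
Cry1 held an E-box 60 to 55 bases and an E-prime box 79 to 74 bases before its start. In Nr1d1 an E-prime box lay 28 to 23 bases before the start. Both annotated starts of Tef had an E-box in their windows, 127 to 122 and 138 to 133 bases before them. These matches can be the same bases. Nfil3 had the AGGTCA half-site on the reverse strand, 12 to 7 bases before its start. No match to these letters was found in the windows of Arntl and Dbp. These are matches of letters, and binding was not measured.

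Among the activators of the core clock, Arntl (chr7:113207465-113314126) was at 23.1, 56.7, 22.9, 26.9 and 35.4 CPM in S_al mice 12, 32, 19, 24 and 13, and at 17, 15.4, 13.2, 5.18 and 12.7 CPM in S_wm mice 31, 29, 16, 27 and 21. Every S_wm library lay below every S_al library, with means of 33.0 ± 14.2 and 12.7 ± 4.56 CPM (SD, n = 5 each). The log2 fold change was -1.36 (SE 0.234, 95% confidence interval -1.83 to -0.89, adjusted p = 0.00783 from edgeR). Npas2, the alternative partner of ARNTL, averaged 35.0 ± 12.2 CPM in S_al and 23.1 ± 8.89 CPM in S_wm, and its groups overlapped (log2 fold change -0.58, SE 0.196, adjusted p = 1). Clock itself was at 100 to 137 CPM in S_al and at 95.9 to 124 CPM in S_wm (log2 fold change -0.15, SE 0.123).

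Among the repressors, Cry1 (chr10:85131700-85185064) was at 9.86, 15.9, 21.1, 14.2 and 12.4 CPM in the S_al mice, in the same order, and at 7.57, 9.87, 6.40, 6.72 and 6.77 CPM in the S_wm mice. Only the library of S_wm mouse 29 reached the lowest S_al library, and the log2 fold change was -0.98 (SE 0.236, adjusted p = 0.563). Cry2, its paralog, stood at 64.1 to 97.9 CPM in S_al and 58.3 to 87.9 CPM in S_wm, with a log2 fold change of 0.00 (SE 0.206). The period genes had fitted values of 0.36 for Per1 (SE 0.238), 0.19 for Per2 (SE 0.218) and 0.58 for Per3 (SE 0.275), each with overlapping groups and an adjusted p of 1. Ciart, a repressor of the CLOCK and BMAL1 pair, was at 4.22 CPM or less in all 10 libraries (log2 fold change 1.08, SE 0.752). Bhlhe40 and Bhlhe41, which compete for E-boxes, had values of 0.39 (SE 0.275) and 0.37 (SE 0.516), and the nuclear receptor Rora, which activates Arntl, a value of -0.15 (SE 0.341). Of the 13 core clock genes, 1 fell and none rose by the test (0.0132% of all genes tested were called), and their median log2 fold change was 0.003 against 0.0005 over all genes.

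Dbp (chr7:45705088-45710203) was at 36.5, 22.2, 25.4, 19 and 34.1 CPM in S_al mice 12, 32, 19, 24 and 13, and at 58.0, 61.6, 67.2, 124 and 74.7 CPM in S_wm mice 31, 29, 16, 27 and 21. Each S_wm library was above each S_al library, with means of 77.2 ± 27 and 27.5 ± 7.59 CPM (SD, n = 5 each). The log2 fold change was 1.48 (SE 0.272, 95% confidence interval 0.93 to 2.03, adjusted p = 0.014 from edgeR). Dbp shares 539 exonic bases with Sphk2 on the opposite strand, and the use of strand in counting is not given in the sources used here, so its counts are uncertain to that extent. Sphk2, a sphingosine kinase, was at 40.1 to 58.2 CPM in S_al and 50.4 to 58.3 CPM in S_wm (log2 fold change 0.19, SE 0.151, adjusted p = 1).

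The other PAR-bZIP genes gave positive values. Tef was at 61.7, 37.2, 54.5, 34.7 and 61.3 CPM in S_al and at 75.3, 77.8, 79.0, 111 and 72.4 CPM in S_wm. These groups did not overlap, and the log2 fold change was 0.73 (SE 0.209, adjusted p = 1). Tef shares 193 bases with Gm17597 on the opposite strand. Hlf was nearly absent, with 29 counts in the S_al and 37 in the S_wm libraries (log2 fold change 0.44, SE 0.846).

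Nfil3 (chr13:52967209-52981073), the repressor that opposes these factors, was at 3.78, 4.76, 5.90, 8.45 and 5.39 CPM in S_al and at 0.757, 2.05, 2.59, 0.768 and 2.73 CPM in S_wm. No S_wm library reached the lowest S_al library. The log2 fold change was -1.64 (SE 0.369, adjusted p = 0.274 from edgeR), and DESeq2 put it past the threshold (-1.65, SE 0.369, adjusted p = 0.0387).

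The Rev-erb genes, which repress Arntl and Nfil3, had no overlap between the groups. Nr1d1 (chr11:98767932-98775333) was at 84.3, 47.6, 63.7, 58.7 and 77.6 CPM in S_al and at 102, 94.2, 110, 118 and 124 CPM in S_wm (log2 fold change 0.72, SE 0.244, adjusted p = 1). Nr1d2 was at 34.7 to 53.3 CPM in S_al and 55.3 to 61.8 CPM in S_wm (log2 fold change 0.36, SE 0.168, adjusted p = 1). Nr1d1 shares 263 bases with Thra on the opposite strand, and Thra, a thyroid hormone receptor, was at 80.4 to 119 CPM in S_al and 88.1 to 114 CPM in S_wm (log2 fold change -0.01, SE 0.13). Usp2, a rhythmic deubiquitinase, had a value of 0.62 (SE 0.368) and Wee1, a cell cycle kinase under clock control, -0.07 (SE 0.208), both with overlapping groups. Of the 8 clock output genes, 1 rose and none fell by the test, 4 were higher and 1 lower without overlap of the groups (0.0132% of all genes tested were called and 0.456% did not overlap), and the median log2 fold change was 0.53 against 0.0005 over all genes. The clock lists were chosen with earlier results of these data known and hold the called genes Arntl and Dbp, so their shares are a description. Levels per kilobase of exon in the 10 libraries were 28.6 CPM per kb for Nr1d1, 17.5 for Dbp, 3.04 for Arntl and 1.83 for Nfil3.

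**Figure D1:**
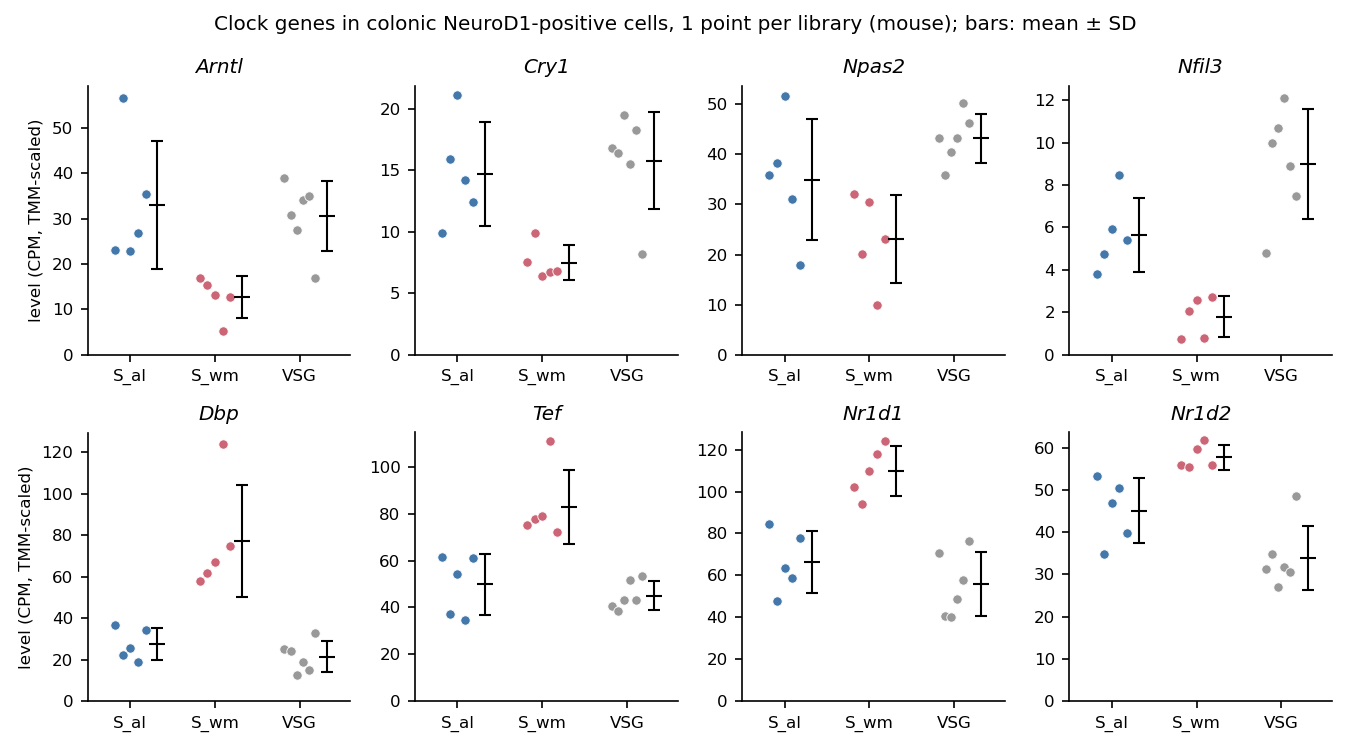
Levels of 8 clock genes in CPM after TMM scaling (vertical axes, from 0) in colonic NeuroD1-positive cells of S_al (n = 5), S_wm (n = 5) and VSG mice (n = 6); points are libraries and black bars the mean ± SD. Arntl and Nfil3 are below the S_al libraries in every S_wm library, and Dbp, Tef, Nr1d1 and Nr1d2 above them, whereas Npas2 overlaps.

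Single libraries bore on the calls. Without S_wm mouse 27, which had the lowest Arntl and the highest Dbp and mitochondrial share, no gene was called, with a log2 fold change of -1.17 for Arntl (adjusted p = 0.0751 from edgeR) and 1.25 for Dbp (adjusted p = 0.19). Without S_al mouse 32, which had the highest Arntl and the lowest depth, no gene was called either (-1.08 and 1.42, adjusted p = 0.101 for each), and Dbp lost the call without S_al mouse 19 (adjusted p = 0.0935) or 24 (0.156). With limma's voom and the mouse as a replicate block over its regions, Arntl was no longer past the threshold (-1.29, SE 0.256, adjusted p = 0.0588), whereas Dbp was (1.41, SE 0.206, adjusted p = 0.000217). In edgeR fits of only the 10 sham colon libraries, Arntl had an adjusted p of 0.999 and Dbp of 0.0938, and in fits of only the 16 colon libraries 0.88 and 0.142, with log2 fold changes of -1.36 and 1.48 in the former and -1.37 and 1.46 in the latter. Without a filter on low counts the adjusted p of Dbp was 0.0536. The second library index also differed in part, being D504 in 3 S_al and 4 S_wm libraries. Within these, Arntl had a value of -1.28 (adjusted p = 0.0649 from edgeR) and Dbp 1.64 (adjusted p = 0.0847), and the part of the index in the comparison was not tested.

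The same contrast was available in the small intestine of mostly the same mice. Dbp had a log2 fold change of 1.45 (SE 0.284, adjusted p = 0.0857) in the duodenum and 1.5 (SE 0.29, adjusted p = 0.067) in the ileum, close to the 1.48 of the colon. For Arntl the values were -0.64 (SE 0.23) and -0.95 (SE 0.231), against -1.36 in the colon. Nfil3 gave -0.22 (SE 0.322) in the duodenum and -0.85 (SE 0.325) in the ileum, against -1.64, and Cry1 -0.27 (SE 0.227) and -0.11 (SE 0.23), against -0.98. Nr1d1 gave 0.71 and 0.86, and Tef 0.50 and 0.77. In the duodenum S_wm mouse 27, with a mitochondrial share of 29.3%, was at 105 CPM for Nr1d1 and 92.1 CPM for Tef. The other S_wm libraries there were at 31.6 to 43.6 CPM for Nr1d1, within the S_al range of 24.4 to 44.7 CPM. For Tef they were at 39.4 to 54.1 CPM, overlapping the 27.9 to 45.4 CPM of S_al. The duodenal values were not fitted without that library. The difference between regions was tested directly. By edgeR's interaction contrasts 0 genes (0%) differed in their response in the colon from that in the duodenum, and 0 (0%) from that in the ileum. Without adjustment 635 and 1012 genes had a p under 0.05, and DESeq2 called 0 and 0 genes. Without S_al mouse 32, 1 gene was called for the difference from the ileum. No effect particular to the colon was shown for Nfil3 or Cry1, whose adjusted p values for the interaction were 1 against the duodenum and 0.773 and 0.703 against the ileum.

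**Figure D2:**
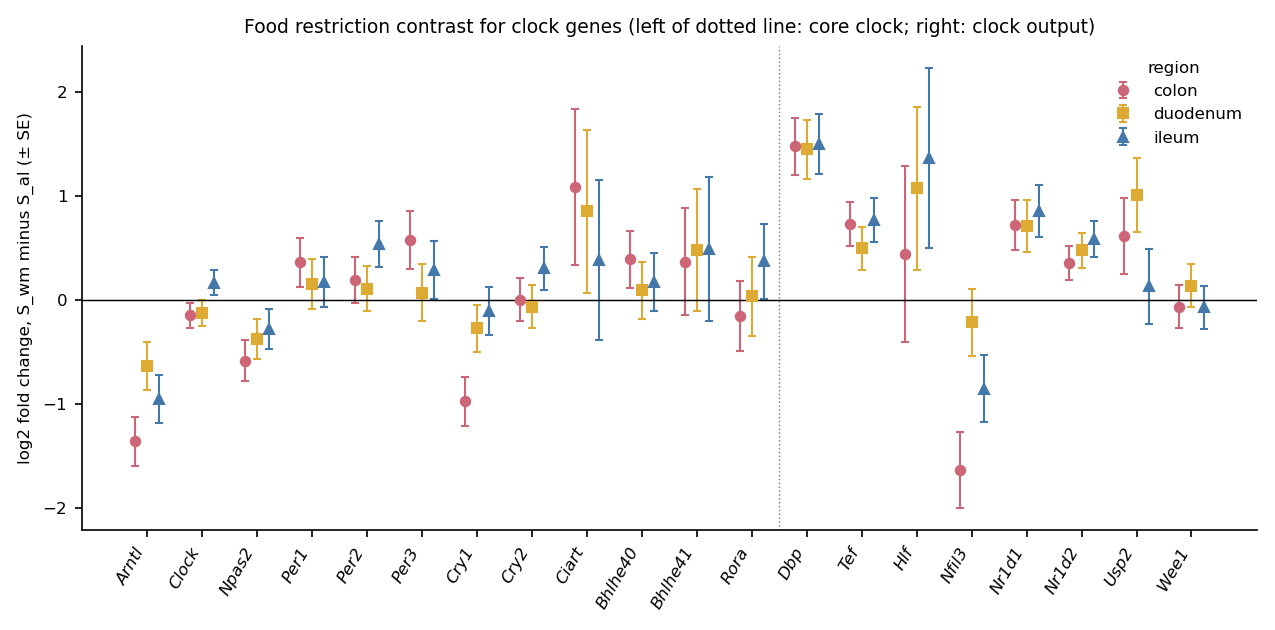
Log2 fold change of S_wm against S_al (vertical axis, ± SE, edgeR) for 12 core clock genes and 8 clock output genes in colon (circles), duodenum (squares) and ileum (triangles), 5 libraries a group. Dbp has values from 1.45 to 1.5 in the 3 regions, while Arntl, Nfil3 and Cry1 have their lowest values in the colon.

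The level of Dbp relative to Arntl in the same library needs no scaling between libraries. In the colon this ratio was 1.58, 0.392, 1.11, 0.707 and 0.965 in S_al mice 12, 32, 19, 24 and 13, and 3.41, 3.99, 5.10, 24 and 5.90 in S_wm mice 31, 29, 16, 27 and 21. The groups did not overlap in the colon, nor in the duodenum (0.21 to 0.431 in S_al and 0.831 to 3.37 in S_wm) or the ileum (0.139 to 0.389 and 1.01 to 1.55). The genes were chosen after their levels were known, so that the ratio is a description. S_wm mouse 27 had the highest ratio in the colon and in the duodenum (3.37).

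**Figure D3:**
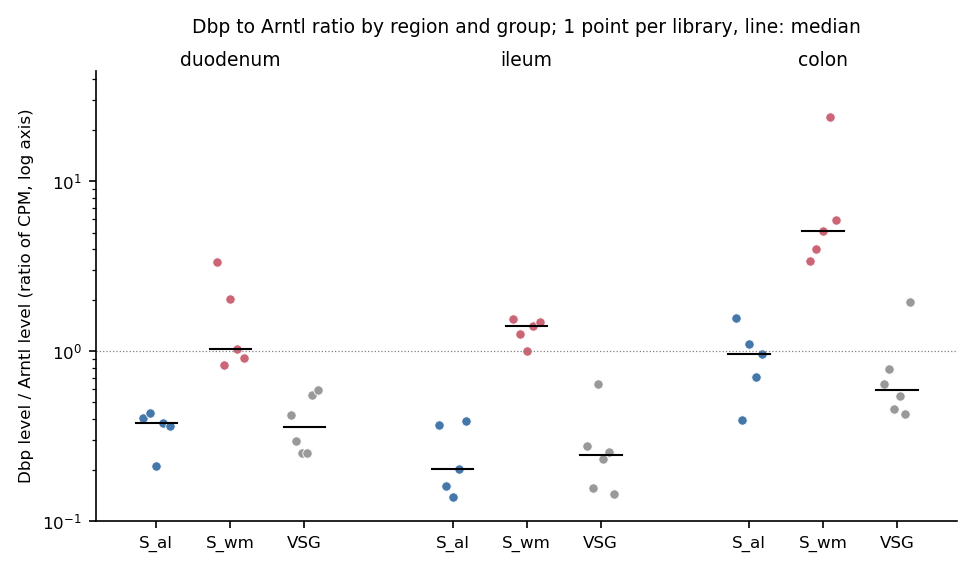
Ratio of the Dbp level to the Arntl level (CPM over CPM, logarithmic vertical axis) in each library of the duodenum, ileum and colon, by group (S_al and S_wm n = 5, VSG n = 6); lines are medians. In each region all S_wm points are above all S_al points, and colonic S_wm mouse 27 is at 24.

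VSG mice, whose weight the S_wm mice were matched to, had colonic levels of these genes that can be set beside both sham groups. VSG mice also received vitamin B12 weekly. Arntl averaged 30.5 ± 7.74 CPM (median 32.4), Dbp at 12.6 to 32.7 CPM (median 21.5) and Nfil3 at 4.77 to 12.1 CPM (median 9.47) in the 6 VSG libraries. The comparisons of VSG with S_al and with S_wm use the same sham libraries as the contrast above and are not independent of it. The genes named here were chosen from that contrast. By edgeR, 9 of 15126 genes were called against S_wm (7 higher and 2 lower in VSG), and 0 against S_al. Against S_wm, the VSG libraries had log2 fold changes of 1.25 for Arntl (adjusted p = 0.00704 from edgeR), -1.84 for Dbp (adjusted p = 8.8e-05), 2.31 for Nfil3 (adjusted p = 0.000351) and 1.07 for Cry1 (adjusted p = 0.0389). Against S_al they were -0.11 for Arntl, -0.36 for Dbp, 0.68 for Nfil3 and 0.10 for Cry1, with adjusted p values from 0.777 to 0.945.

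Outside the clock, no gene passed the threshold with all 10 libraries, and those of lowest p are given as values. Among those higher in S_wm, Proz, which encodes the plasma protein Z, had 6 counts in S_al and 39 in S_wm, with 0 to 0.609 CPM in S_al and 1.01 to 1.54 CPM in S_wm (log2 fold change 2.61, SE 0.667, adjusted p = 0.874 from edgeR). Without S_al mouse 12, which held 5 of the 6 S_al counts, the value for Proz was 4.36 (adjusted p = 0.0461). Frrs1, a ferric reductase, averaged 16.9 ± 6.35 CPM in S_al and 28.2 ± 6.63 CPM in S_wm (0.75, SE 0.205, adjusted p = 0.956), and was past the threshold within the D504 libraries (1.23, adjusted p = 0.0376). The iron carrier transferrin (Trf) had 1 count in S_al and 20 in S_wm, a ratio of 19.7 with a counting interval of 3.16 to 818, and 3 of the S_wm libraries held 0.192 CPM or less. Eno3, the muscle form of enolase, averaged 12.3 ± 5.56 and 28.9 ± 15.6 CPM (1.24, SE 0.368), with S_wm mouse 27 highest at 55.7 CPM. Pfkfb1, which sets fructose 2,6-bisphosphate, was at 0.314 ± 0.274 and 1.48 ± 0.695 CPM (2.20, SE 0.655). The histone gene Hist1h2ag, whose near-identical copies make its counts uncertain, had non-overlapping groups at 0.695 ± 0.322 and 3.00 ± 0.926 CPM (2.12, SE 0.635). BC024978 (0.83, SE 0.227), which overlaps Itpkc and Snrpa, and Susd1 (1.45, SE 0.434) complete the 10 of lowest p in this direction with Dbp and Tef.

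Among those lower in S_wm, Rpusd1, a pseudouridine synthase family gene, had non-overlapping groups at 7.68 ± 2.01 and 3.23 ± 1.15 CPM (log2 fold change -1.23, SE 0.325, adjusted p = 0.886). Zfp54, a zinc finger gene, was at 6.07 ± 1.47 and 2.83 ± 1.34 CPM (-1.11, SE 0.291). Tmem252, a membrane protein gene, was at 14.6 ± 4.5 and 7.82 ± 2.47 CPM (-0.89, SE 0.236), and only 1 S_wm library lay below all S_al libraries. Ate1, the arginyltransferase of protein turnover, was at 46.2 ± 5.39 and 35.2 ± 4.23 CPM (-0.39, SE 0.118). Mmp16, a membrane-bound metalloproteinase, had 0 counts in S_wm and 15 in S_al, 13 of them in S_al mouse 32, so that 2 counts remained without that library and no fold is given. Stab1, a scavenger receptor, had 26 counts in S_al and 1 in S_wm (ratio 26.4, counting interval 4.33 to 1080). Nhs gave -1.95 (SE 0.569). Arntl, Nfil3 and Cry1 complete the 10 of this direction.

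Gut peptide genes, the products by which EECs act, gave no call: 0 of 12 passed edgeR's test, 0 had an unadjusted p under 0.05, DESeq2 called none, and none had non-overlapping groups. Over all genes tested these shares were 0.0132% called, 3.66% with an unadjusted p under 0.05 and 0.456% without overlap, so that counts of 0 among 12 genes do not set the peptide genes apart. Gcg, the precursor of GLP-1, was at 679, 448, 880, 1210 and 1040 CPM in S_al and at 1200, 1880, 551, 185 and 1250 CPM in S_wm. The S_wm libraries spread on both sides of the S_al range, and the log2 fold change was 0.25 (SE 0.465, 95% confidence interval -0.69 to 1.19). Pyy, co-produced in L-cells, was at 383 to 729 CPM in S_al and at 265 to 1160 CPM in S_wm (0.02, SE 0.418, interval -0.83 to 0.86). Both intervals are wide, so that the p values do not show equal levels.

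Insl5, the colonic L-cell peptide that acts on appetite, was at 59.8 to 250 CPM in S_al and 65.8 to 453 CPM in S_wm (log2 fold change 0.41, SE 0.466). Nts, neurotensin, gave -0.21 (SE 0.373), with 334 to 589 and 188 to 596 CPM. The highest Gcg, Pyy, Insl5 and Sst levels were all in S_wm mouse 29, and Gcg and Pyy were lowest in S_wm mouse 27. Sst, the inhibitory peptide of D-cells, gave 0.20 (SE 0.537). Sct, secretin, was at 442 ± 173 CPM in S_al and 339 ± 144 CPM in S_wm (-0.38, SE 0.322) and had the lowest p of the list. S_al mouse 12 was at 741 CPM for Sct, and without that library the value was -0.11 (SE 0.33). Tac1, the substance P precursor of enterochromaffin cells, gave -0.42 (SE 0.375). The proximal hormones were low here, with Gip at 6.04 to 99.0 CPM (-0.17, SE 0.62), Cck at 5.37 to 39.0 CPM (-0.04, SE 0.387) and Ghrl at 0.616 to 3.84 CPM (-0.69, SE 0.685) over the 10 libraries. Gast had 0 counts in all 10 libraries, which allows up to 0.0449 CPM over them by counting error, and Penk had 2 counts in S_al and 4 in S_wm. Over the 10 peptide genes with a mean of at least 1 CPM the values ran from -0.69 to 0.41 with a median of -0.10, and over all 12 the median was -0.02.

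**Figure D4:**
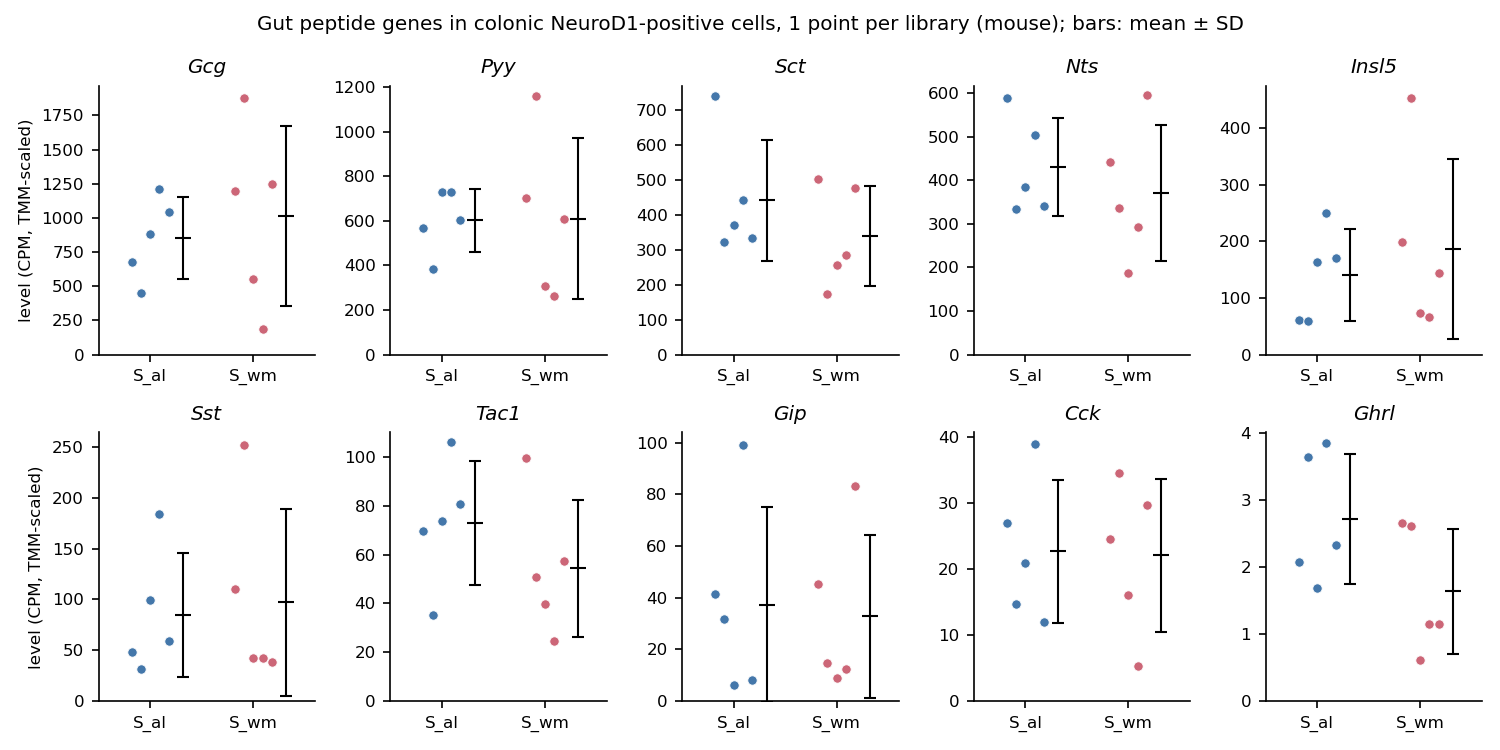
Levels of 10 gut peptide genes in CPM after TMM scaling (vertical axes, from 0) in colonic NeuroD1-positive cells of S_al and S_wm mice, 5 libraries each; points are libraries and black bars the mean ± SD. The groups overlap in every panel, and the S_wm libraries of Gcg run from 185 to 1880 CPM.

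Genes of the EEC program gave no call, which does not set them apart, as 0.0132% of all genes tested were called. Their values were of both signs, with more negative than positive values in each list below. Chga, the granule protein chromogranin A, was at 16600 to 39200 CPM in S_al and 12600 to 29300 CPM in S_wm (log2 fold change -0.33, SE 0.288), and Neurod1, the transcription factor used for the sort, was at 217 to 380 and 185 to 348 CPM (-0.28, SE 0.257). Insm1 (-0.36, SE 0.249) and Rfx6 (-0.28, SE 0.237), transcription factors of EEC differentiation, had the lowest p of the sorted-cell list, whose 12 members had a median of -0.26. The 10 enterochromaffin genes had a median of -0.23, with Tph1, the rate-limiting enzyme of serotonin synthesis, at 3651 ± 1080 CPM in S_al and 2740 ± 1100 CPM in S_wm (-0.41, SE 0.298) and the vesicular transporter Slc18a2 at 0.81 (SE 0.565). The 26 enteroendocrine transcription factor genes had a median of -0.04, with Sox4 at -0.31 (SE 0.21) after Insm1. In 19 of 20 exocytosis genes that were tested, 15 values were negative and the median was -0.16, with Vamp2, which acts in vesicle fusion, at -0.24 (SE 0.187). Ion channels of excitability (20 genes) had a median of -0.05, with Scn8a, a sodium channel, at -0.72 (SE 0.363). These lists share libraries in which EEC genes as a whole were low: S_wm mice 29 and 27 and S_al mouse 32 had the lowest sorted-cell sums (29600, 31500 and 38600 CPM), and the part of EEC purity in these values was not tested.

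Receptors and transporters by which EECs sense the lumen also gave no call. With 0.0132% of all genes tested called, this does not set them apart. Of 16 nutrient and bile acid receptors 14 were tested, with a median of 0.02, Olfr78, a short-chain fatty acid receptor, at 56.1 ± 8.89 and 37.9 ± 14.3 CPM (-0.57, SE 0.321) and Gpr35 at 0.38 (SE 0.287). Of 26 peptide, amine and hormone receptors 22 were tested (median -0.17). Chrm3, the muscarinic M3 receptor, was at 1.10, 2.04, 2.95, 4.80 and 2.08 CPM in S_al and 0.378, 1.49, 1.23, 1.54 and 0.432 CPM in S_wm (-1.37, SE 0.447, adjusted p = 1), and its groups overlapped. Its relative Chrm4 gave 1.17 (SE 0.561), with 0 counts in 3 of the S_al libraries. Nutrient transporters and glucose sensing genes (18) had a median of 0.07, with the glucose transporter Slc2a1 at 0.29 (SE 0.18) and the fructose transporter Slc2a5 at 0.72 (SE 0.491).

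Genes known to respond to fasting and nutrient supply were not called in these animals, all of which had been fasted overnight. Since 0.0132% of all genes tested were called, the absence of calls does not set these genes apart. Ppara, the receptor that drives fat oxidation genes in fasting, was at 9.86, 13.4, 15.7, 8.06 and 8.94 CPM in S_al and at 7.57, 18.1, 20.8, 22.8 and 19.3 CPM in S_wm. It was above all S_al libraries in 4 of 5 S_wm libraries and lowest of all in S_wm mouse 31 (log2 fold change 0.66, SE 0.218, adjusted p = 1). The median over the 25 genes of its list was 0.01, with the lipid droplet gene Cidec at -1.03 (SE 0.68). FoxO and insulin receptor genes (16 of 17 tested) had a median of -0.17, with Trib3 at -1.05 (SE 0.585) and Foxo1 at -0.24 (SE 0.137). Cholesterol synthesis genes (22) had a median of 0.03, with Dhcr7 at 0.33 (SE 0.163), and fatty acid synthesis genes (13 of 15 tested) a median of 0.15, with the desaturases Fads2 at 0.43 (SE 0.201) and Scd2 at 0.47 (SE 0.285). The unfolded protein response list (17 genes, median 0.04) ran only from -0.19 to 0.19 and was led by the chaperones Hspa5 (-0.18, SE 0.122) and Dnajb11 (0.14, SE 0.137). The integrated stress response list (17 genes) had a median of -0.22, with Atf4, its transcription factor, at -0.35 (SE 0.169) and Asns at -0.33 (SE 0.182). Glucocorticoid response and metallothionein genes (15 of 16 tested) had a median of 0.11, with Mt2 at 45.2 ± 14.3 and 28.7 ± 6.13 CPM (-0.65, SE 0.368) and the mineralocorticoid receptor Nr3c2 at 0.37 (SE 0.229). Immediate early genes (19 of 20 tested) had a median of -0.13, with Nr4a2 at -0.32 (SE 0.261) and Klf2 at -0.68 (SE 0.604).

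Nuclear genes of oxidative phosphorylation had positive values in 19 of 20 members, with a median of 0.17 against 0.0005 over all genes. Values ranged from -0.08 to 0.39. None had an unadjusted p under 0.05, against 3.66% of all genes tested, which does not set these 20 genes apart. Cox5a (0.34, SE 0.245) and Ndufa1 (0.39, SE 0.294) had the lowest p. Their sum was 3090 to 5130 CPM in S_al and 3210 to 5610 CPM in S_wm, so that the groups overlapped, and it was highest in S_wm mouse 27, which also had the highest mitochondrial share. Of 13 mitochondrially encoded genes 7 passed the filter (median 0.10, mt-Co1 0.16 with SE 0.254, mt-Nd1 0.14 with SE 0.242), and 5 of the others were listed at 0 in all 10 libraries. IGF axis genes (9 of 11 tested) had a median of -0.06, with Igfbp4 at 0.32 (SE 0.244) and Pappa, a protease of IGF binding proteins, at 11560 ± 3190 and 13390 ± 4700 CPM (0.21, SE 0.325). Xenobiotic enzymes (21 of 22 tested) had a median of 0.06, with Ces1g at -0.56 (SE 0.388) and Ugt2b35 at 0.40 (SE 0.327), and proliferation genes (18) a median of -0.02, with Ccnb2 at 0.82 (SE 0.439) and Cdk1 at -0.35 (SE 0.349).

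Genes of region identity gave no call, where 0.0132% of all genes tested were called, so that they are not set apart. The colonic and rectal list (9 genes, 8 in the table and 5 tested) had a median of 0.28, with Hoxb13 at 0.35 (SE 0.393) and Hoxa13 at 0.27 (SE 0.365), and the small intestinal list (14 genes) a median of -0.13. The apolipoprotein genes Apoa1 (44.8 ± 30.3 and 19.6 ± 8.03 CPM, log2 fold change -1.17, SE 0.621) and Apoa4 (-1.36, SE 0.809) had the lowest p of the latter.

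Markers of other epithelial cells were present in the sorted material at overlapping levels. Goblet cell genes (14 tested, median 0.15) summed to 5180 to 10400 CPM in S_al and 3430 to 14300 CPM in S_wm, with Atoh1 at 0.58 (SE 0.378) and Retnlb at -0.78 (SE 0.58). Colonocyte genes (16, median 0.26) summed to 3740 to 4930 and 3310 to 5500 CPM, with the phosphate transporter Slc20a1 at 0.67 (SE 0.297) and the chloride exchanger Slc26a3 at 0.62 (SE 0.419). Crypt stem cell genes (10, median 0.11) included Smoc2 at 0.37 (SE 0.256) and Lgr5 at 0.55 (SE 0.389), and tuft cell genes (10 of 12 tested, median -0.05) Ptgs1 at -1.11 (SE 0.862) and Avil at -0.40 (SE 0.389).

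Genes of Paneth and deep crypt secretory cells had negative values in 10 of 10 members, with a median of -1.78, or -1.69 with Defa17, which had 0 counts in S_wm, at its bound. The 2 of lowest p, Itln1 and Ang4, are antimicrobial lectin and angiogenin genes. Ang4 was at 12.8, 11.8, 1.83, 26.5 and 127 CPM in S_al and at 1.64, 8.93, 13.2, 9.98 and 17.6 CPM in S_wm, so that S_al mouse 13 carried most of the S_al level (log2 fold change -1.83, SE 0.759, adjusted p = 1). Itln1 was at 1.34, 16.5, 1.27, 3.46 and 9.06 CPM in S_al and 0.757 to 3.07 CPM in S_wm (-2.02, SE 0.799, adjusted p = 1). None of the 10 was called and 2 had an unadjusted p under 0.05, against 0.0132% and 3.66% of all genes tested, and the summed level overlapped (373 to 1100 and 333 to 652 CPM).

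MHC class II and antigen presentation genes had negative values in 13 of 14 members (median -0.43), with H2-Aa at -2.26 (SE 1.22) and Cd74, the invariant chain, at -1.52 (SE 1). Cd74 ranged from 5.26 to 355 CPM in S_al and from 1.14 to 122 CPM in S_wm, and the sum of the list was highest in S_al mouse 24 (1740 CPM, against 666 to 1030 CPM in the other 9 libraries). Interferon response genes were negative in 12 of 14 (median -0.39), with Gbp2 at 0.979 to 15.7 CPM in S_al and 0.631 to 2.88 CPM in S_wm (-2.03, SE 0.801) and Rsad2 at -1.19 (SE 0.534). Mucosal defence genes (22 of 24 tested) had a median of 0.03, led by Ang4 and Retnlb. Of 15 immune cell markers 7 were tested, and these 7 summed to 4.99 to 12.2 CPM in S_al and 1.85 to 9.87 CPM in S_wm. Their median was -0.85, also with Lyz2 at its bound, and Ptprc was at -0.85 (SE 0.689). Of the 14 stromal, vascular and muscle markers 3 passed the filter (median -0.48, Myh11 -1.75 with SE 0.874, Vim -0.46 with SE 0.282), and of the 12 markers of enteric neurons and glia 6 (median 0.05, Ret -0.33 with SE 0.283, Uchl1 0.15 with SE 0.416). The part of these cells in the other results was not tested.

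**Figure D5:**
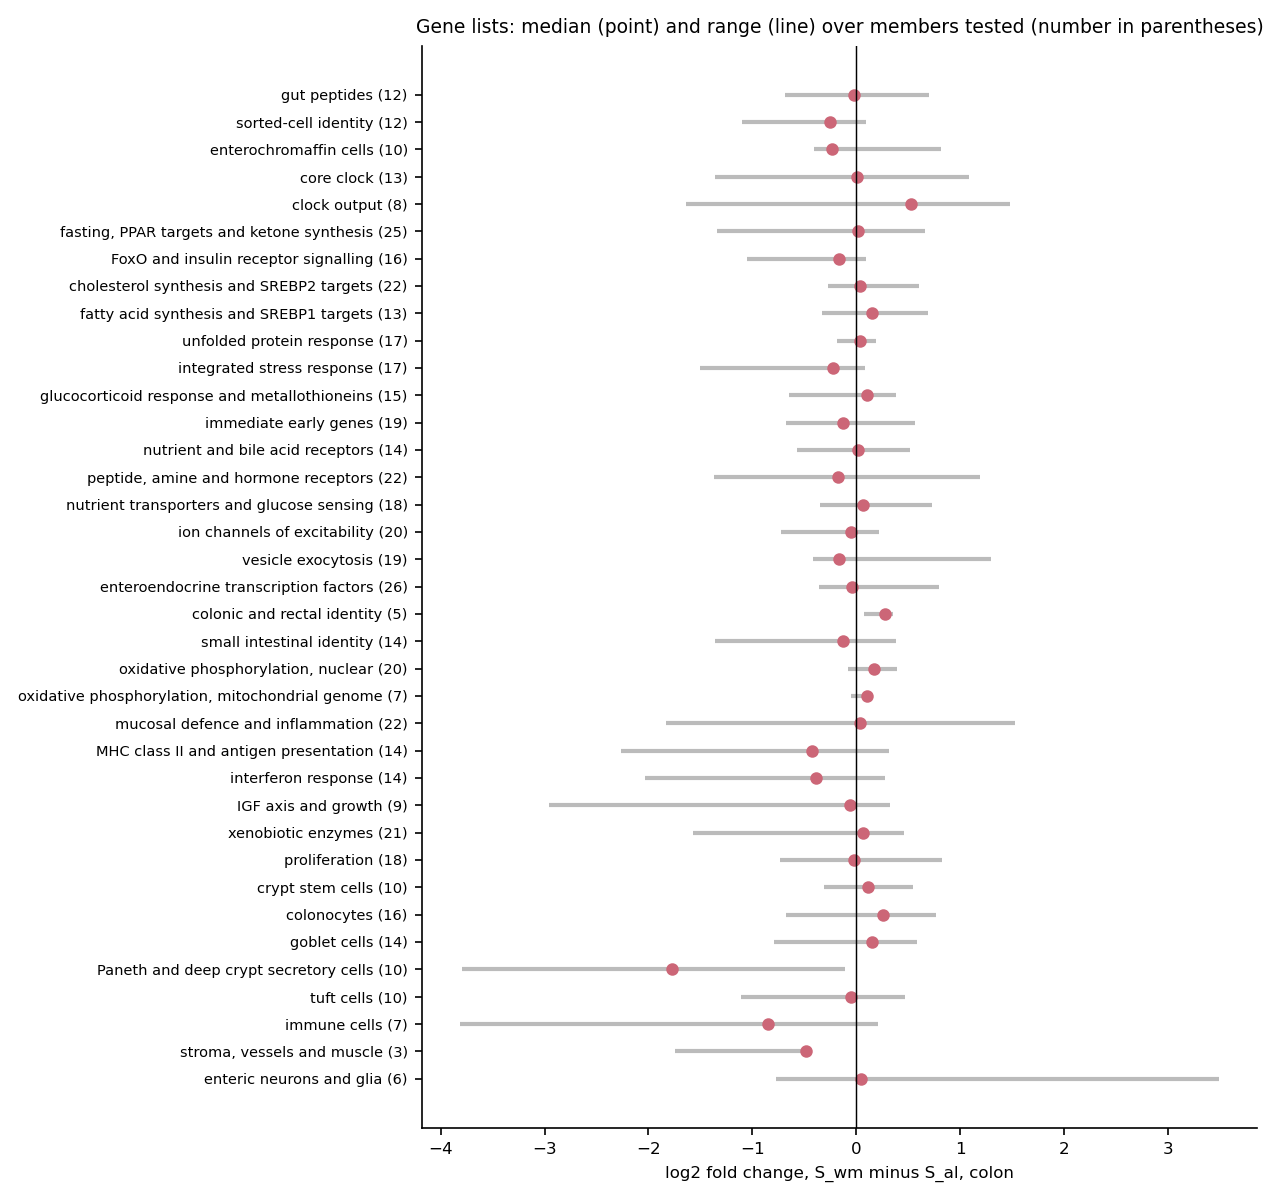
Median (point) and range (line) of the log2 fold change of S_wm against S_al in the colon (horizontal axis) over the tested members of 37 gene lists, with the number of members tested in parentheses. Most medians lie near 0. The clock output list is at 0.53, the immune cell list at -0.85, and the stromal, vascular and muscle list at -0.48. The Paneth and deep crypt secretory list is lowest at -1.78 without a called member.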

How the data were processed

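EYFP-positive, CD45-negative cells were sorted per mouse and intestinal segment, and libraries were made with a stranded total RNA pico kit and sequenced as single-end reads. The authors deposited raw counts per gene for 48 libraries from 17 mice, aligned with STAR 2.5.1 to GRCm38, and the counts were used as deposited. The strand setting of counting was not given in the sources used here. Libraries were grouped by their labels for condition and tissue (9 groups). All 48 entered 1 edgeR 4.0.16 quasi-likelihood fit in R 4.3.3, with a mean per group, TMM scaling and edgeR's filter on low counts (15126 of 53465 genes kept), and contrasts were adjusted by Benjamini-Hochberg at 0.05. Gene positions and overlaps came from GENCODE M21, which held 53360 of the identifiers. Total counts limit precision, and intervals and floors of single counts cover counting error only.

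The genes named were those past the threshold, then those of next lowest p up to 10 in each direction, all 12 gut peptide genes, and from each other list up to 2 members of lowest p with a mean of at least 1 CPM. A few of these genes are not reported here. Members and lists were chosen with earlier results of these data known. The scripts were tested on simulated data. Alternatives were DESeq2 1.42.0, its size factors, other filters, fits on fewer libraries, leaving out each library, and voom from limma 3.58.1 in which libraries of 1 mouse formed a replicate block. The mouse pairs libraries of different regions. Deviations of the colon library from its group mean correlated with those of the same mouse's other regions with a median r of 0.112 (19 pairs, 13 over 0.1, range -0.0201 to 0.267). No 2 libraries of a colon group agreed within counting noise (lowest chi-square per gene 13.2 over 20 pairs).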

Additional observations from a re-analysis of the deposited data

Results flagged for a closer look

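Values far from the rest of their group of 5 were found in 11 of 142 groups of libraries searched by Dixon's ratio of gap to range, which chance exceeds in about 1 in 20 groups. S_wm mouse 27 stood above the other S_wm libraries in Dbp (124 CPM, others 58.0 to 74.7 CPM), in Tef (111 CPM, others 72.4 to 79.0 CPM) and in the summed clock output genes (456 CPM, others 332 to 366 CPM). S_al mouse 12 was highest of its group in Sct (741 CPM, others 322 to 443 CPM) and in Hlf (2.56 CPM, others up to 0.612 CPM). Penk was seen in only S_al mouse 24 (0.384 CPM) and S_wm mouse 31 (0.505 CPM) of their groups. The summed fasting and PPAR target genes were at 4520 CPM in S_al mouse 32, against 2900 to 3280 CPM in the others of its group. The summed peptide, amine and hormone receptor genes were at 576 CPM in S_wm mouse 31 (others 435 to 471 CPM), the summed MHC class II genes at 1740 CPM in S_al mouse 24 (others 666 to 962 CPM), and the summed immune cell markers at 9.87 CPM in S_wm mouse 29 (others 1.85 to 4.03 CPM).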

How the results depend on the processing

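The count of 2 genes called went to 1 without a filter on low counts (Arntl), 1 with voom and the replicate block (Dbp), 0 in fits of only the 10 sham colon libraries or only the 16 colon libraries, and 1 within index D504 (Frrs1), where the cause was not tested. Fewer libraries entered the last 3. It was 2 or 3 with DESeq2's size factors, DESeq2 and a stricter filter. Leaving out 1 library gave 0 to 3 genes for the colon (3 without S_al mouse 12, which added Proz) and 0 to 1 for the difference from the ileum, the 1 being without S_al mouse 32. Over 18 settings the log2 fold change of Arntl ran from -1.49 to -1.08 (past the threshold in 12) and of Dbp from 1.25 to 1.64 (10). Signs turned for genes without a call: Cry2 (0, 0 and 0 with DESeq2's size factors, DESeq2 and voom, -0.01 in the 16 colon libraries, -0.09 within D504), with voom and the replicate block Gcg (-0.04), Pyy (-0.13), Gip (0.15), Gast (-0.6, from 0 counts in the 10 libraries) and Penk (-0.01), and within D504 Gcg (-0.11), Pyy (-0.23), Insl5 (-0.08), Sst (-0.28) and Penk (-2.84). Leaving out 1 library at a time, the fold change also crossed or reached 0 for Pyy (-0.35 to 0.21), Gcg (-0.09 to 0.52), Insl5 (-0.22 to 0.72), Sst (-0.53 to 0.7), Cck (-0.25 to 0.24), Gip (-0.86 to 0.6), Penk (-2.23 to 2.94), Cry2 (-0.06 to 0.1), Rora (-0.29 to 0) and Wee1 (-0.19 to 0.02). The replicate block changed no other call. Genes of few counts, such as Penk, are limited by depth.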
